A study of Schizosaccharomyces pombe with 261 samples.

Results

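The transcripts described here are 131 long noncoding RNAs (lncRNAs) of the fission yeast Schizosaccharomyces pombe that lie opposite another gene and were more abundant after 25 min of heat. They were chosen from 1142 annotated noncoding RNAs (identifiers beginning SPNCRNA) that overlap a gene on the opposite strand and lie at least 100 kb from the ends of chromosomes I and II. A member had a mean of at least 2 CPM (counts scaled to the library's total count in genes, so that every library sums alike) at 25 min in wild-type cells of series RNA1. That mean also had to be at least 3 times the sum of the 0 min mean and 0.5 CPM. The 25 and 0 min levels of RNA1 therefore chose the members, and they are given below as description with no test.

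Cells were grown in YES medium to mid-log phase at 30 °C and shifted to 37.5 °C, and messenger RNA libraries were sequenced in 13 groups of 3 libraries. Every strain had mating type h+ and the alleles ura4-DS/E, leu1-32 and ade6-DN/N. Each also carried otr1R::ade6+ together with imr1L::ura4+, reporter genes in the heterochromatin beside a centromere. Series RNA1 held wild type at 0, 5 and 25 min, and RNA2 held wild type at 0, 2.5 and 5 min. RNA3 held strains with atf1::KanMX6 or pcr1::KanMX6 at 0 and 5 min, and with clr4::NatMX6 at 0, 2.5 and 5 min, each deletion on the same background. Atf1 and Pcr1 are the paired transcription factors of the stress-activated kinase pathway, and Clr4 is the histone H3 lysine 9 methyltransferase that builds heterochromatin. The labels do not say whether replicates came from separate cultures, so the tests measure the spread between these libraries, which may be technical.

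Antisense RNAs are transcribed across a gene from the opposite strand. In fission yeast most are kept scarce by the nuclear exosome, by RNA interference and by chromatin factors that silence start sites inside genes, and many become visible under stress or in meiosis. Heat shock factor binds repeats of a short unit, nGAAn, in alternating orientation, and Atf1 with Pcr1 binds a cyclic-AMP response element. In messenger RNA libraries from cultures, fewer cells with a transcript and less of it per cell cannot be told apart.

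Each library held between 6573143 and 12588425 counts in genes, and the members together took between 431 and 3806 CPM. The third RNA2 wild-type library was the lowest over the members at each time, with 488 CPM at 0 min against 663 and 657 CPM, 561 CPM at 2.5 min against 719 and 676 CPM, and 756 CPM at 5 min against 1103 and 1105 CPM. The second clr4Δ library at 5 min was high, with 1409 CPM over the members against 1071 and 959 CPM, and 7316 CPM over other antisense lncRNAs against 5366 and 5596 CPM. Counts of the deleted genes did not vanish in the deletion strains. The mean of atf1 was 133 ± 17.4 CPM at 0 min in the libraries labelled atf1Δ and 225 ± 17.9 CPM in wild type RNA2 (SD, n = 3 each). That of pcr1 was 43.0 ± 4.22 CPM in the libraries labelled pcr1Δ against 76.0 ± 17.99 CPM. At 5 min the mean of atf1 was 154.5 ± 14.42 CPM in atf1Δ and 557.7 ± 55.3 CPM in wild type RNA2. For pcr1 these were 50.44 ± 3.796 CPM in pcr1Δ and 282.7 ± 32.65 CPM. The log2 change from 0 to 5 min thus differed from wild type RNA2 by -1.036 for atf1 in atf1Δ (edgeR adjusted p = 0.0002013). For pcr1 in pcr1Δ it differed by -1.682 (edgeR adjusted p = 8.431e-06), and for pcr1 in atf1Δ by -1.626. In libraries labelled clr4Δ the clr4 count stood above wild type, at 177 ± 3.89 CPM against 46.1 ± 2.44 CPM, so these strains are named below by their labels only. The files do not show which part of each gene was removed.

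The DNA around the members' annotated starts carried heat shock elements more often than that of other genes. The windows below are shown because they hold the longest of these elements. Each window runs from 250 bases before to 50 bases after the start, read 5′ to 3′ along the lncRNA's strand from RefSeq (ASM294v3), where 129 of the 131 members were found with the same start, end and strand as in the deposited tables. The motifs searched on both strands were GAANNTTC (units head to head), TTCNNGAA (units tail to tail) and TGACGT (core of the cyclic-AMP response element). Element types can overlap, and a window with 3 alternating units holds both of the former. Only 5 members had such a 3-unit element, that is a head-to-head and a tail-to-tail match that share 1 unit, and capitals mark it. These members were chosen after the matches were seen. The windows lie at I:166333-166632 on the plus strand, at I:2369430-2369729 on the plus strand, at I:4931073-4931372 on the plus strand, at II:142131-142430 on the minus strand and at II:2516137-2516436 on the minus strand.
SPNCRNA.616: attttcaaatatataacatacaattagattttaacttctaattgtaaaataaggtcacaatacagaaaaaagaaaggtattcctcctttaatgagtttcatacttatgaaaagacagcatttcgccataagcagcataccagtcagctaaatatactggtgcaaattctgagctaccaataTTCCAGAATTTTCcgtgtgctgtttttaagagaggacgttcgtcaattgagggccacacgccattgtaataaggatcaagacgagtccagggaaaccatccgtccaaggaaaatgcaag
SPNCRNA.818: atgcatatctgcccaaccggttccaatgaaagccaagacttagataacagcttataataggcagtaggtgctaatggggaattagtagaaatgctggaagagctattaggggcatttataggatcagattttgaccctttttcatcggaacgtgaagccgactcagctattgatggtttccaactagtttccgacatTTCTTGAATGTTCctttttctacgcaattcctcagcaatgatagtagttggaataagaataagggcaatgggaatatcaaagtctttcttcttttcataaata
SPNCRNA.1037: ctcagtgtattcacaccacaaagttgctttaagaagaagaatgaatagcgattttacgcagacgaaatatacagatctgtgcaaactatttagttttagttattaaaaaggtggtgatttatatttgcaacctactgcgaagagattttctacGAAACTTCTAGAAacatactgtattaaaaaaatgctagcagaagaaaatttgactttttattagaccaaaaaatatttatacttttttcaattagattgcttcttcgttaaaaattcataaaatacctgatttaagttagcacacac
SPNCRNA.1315: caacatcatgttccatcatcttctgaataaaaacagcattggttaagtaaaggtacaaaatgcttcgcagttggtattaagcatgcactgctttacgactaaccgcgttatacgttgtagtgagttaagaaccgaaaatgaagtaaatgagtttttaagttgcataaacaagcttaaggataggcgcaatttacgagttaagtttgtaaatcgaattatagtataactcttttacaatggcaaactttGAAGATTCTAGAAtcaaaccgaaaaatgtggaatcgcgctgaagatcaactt
SPNCRNA.1523: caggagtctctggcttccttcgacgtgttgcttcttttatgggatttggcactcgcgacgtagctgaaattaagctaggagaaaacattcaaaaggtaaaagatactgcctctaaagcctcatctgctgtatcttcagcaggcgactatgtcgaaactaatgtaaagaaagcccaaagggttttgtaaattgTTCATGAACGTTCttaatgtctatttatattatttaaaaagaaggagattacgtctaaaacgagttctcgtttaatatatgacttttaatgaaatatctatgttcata

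A further 3 windows are shown for members on which later results turn. Windows without a match are not shown, among them that of SPNCRNA.815, whose 5 min response differed between pcr1Δ and wild type. A heat shock element was found in 58 of 129 member windows. SPNCRNA.811 and SPNCRNA.1071 also differed between deletion strains and wild type in that response. SPNCRNA.1475 had the largest ratio of 25 to 0 min. The 3 windows lie at I:2297570-2297869 on the plus strand, at I:5321805-5322104 on the minus strand and at II:1904173-1904472 on the plus strand. Matches to either 2-unit element are in capitals.
SPNCRNA.811: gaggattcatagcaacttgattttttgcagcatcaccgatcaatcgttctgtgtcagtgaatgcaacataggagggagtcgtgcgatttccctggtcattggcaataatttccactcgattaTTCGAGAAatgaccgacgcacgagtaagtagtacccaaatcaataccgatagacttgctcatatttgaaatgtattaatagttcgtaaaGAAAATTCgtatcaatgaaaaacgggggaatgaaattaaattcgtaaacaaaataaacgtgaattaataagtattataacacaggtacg
SPNCRNA.1071: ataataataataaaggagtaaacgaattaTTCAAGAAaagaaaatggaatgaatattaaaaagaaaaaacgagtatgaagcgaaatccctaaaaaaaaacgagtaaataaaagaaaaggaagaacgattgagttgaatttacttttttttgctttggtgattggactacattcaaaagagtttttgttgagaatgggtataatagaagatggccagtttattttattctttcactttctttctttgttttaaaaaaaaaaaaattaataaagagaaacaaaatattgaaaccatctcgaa
SPNCRNA.1475: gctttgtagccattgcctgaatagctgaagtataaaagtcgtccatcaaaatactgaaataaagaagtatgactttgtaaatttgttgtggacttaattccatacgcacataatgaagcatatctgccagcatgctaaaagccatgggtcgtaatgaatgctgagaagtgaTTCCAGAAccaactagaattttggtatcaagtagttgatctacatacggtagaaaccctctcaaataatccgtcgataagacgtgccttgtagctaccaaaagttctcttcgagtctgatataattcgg

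Either 2-unit heat shock element was found in 58 of 129 member windows (45.0%), against 181 of 953 windows of other antisense lncRNAs (19.0%). All annotated genes stood at 19.9% and protein-coding genes at 19.8%. The head-to-head form occurred in 23.3% of member windows and 10.4% of other antisense windows, and the tail-to-tail form in 28.7% and 10.5%. The 3-unit element, searched after the 2-unit forms had been counted, was in 5 of 129 member windows (3.88%), in 3 of 953 other antisense windows (0.315%) and in 35 of 6641 windows of all genes (0.527%). The cyclic-AMP response core was not more common among members, at 5.43% against 7.66% of other antisense lncRNAs and 6.23% of all genes. The windows were also split by where the lncRNA starts. Of members that start inside the gene opposite, 49 of 92 windows (53.3%) held an element, against 120 of 608 (19.7%) for other antisense lncRNAs that start inside. Where the lncRNA starts downstream of the opposite gene, the shares were 9 of 37 (24.3%) and 61 of 345 (17.7%). The difference between these start positions was not tested. Base composition was alike, with a median of 34.3% G+C in member windows and 33.7% in the others. A match says only that these letters are present, and binding was not measured here.

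**Figure D1:**
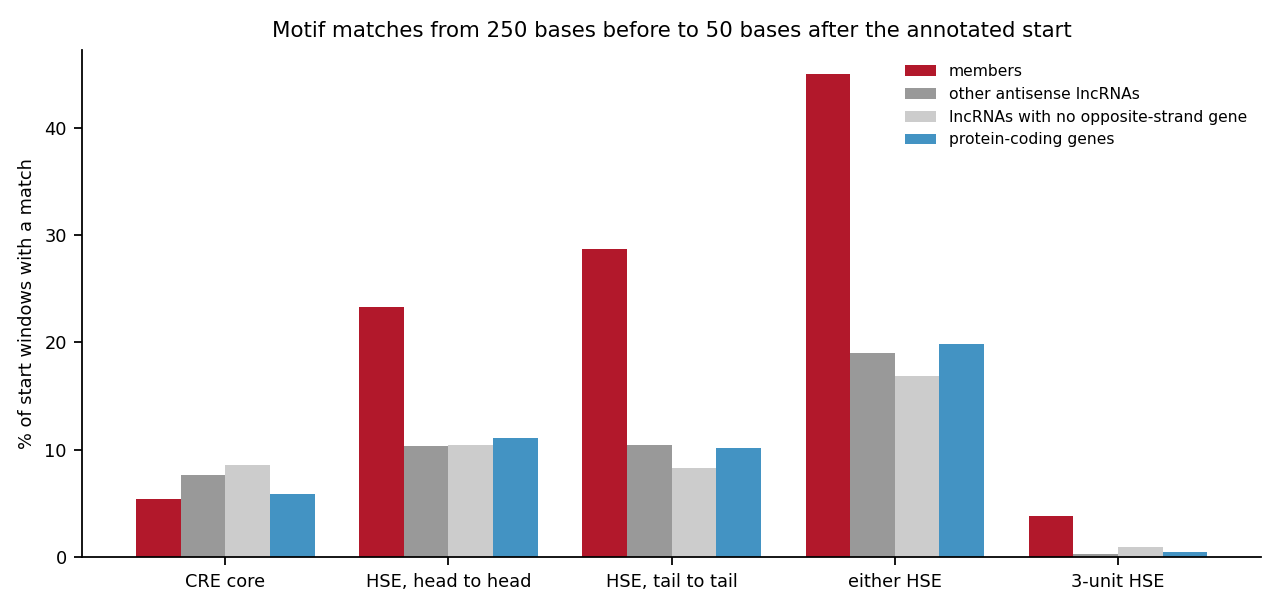
Percent of start windows, from 250 bases before to 50 bases after the annotated start, with a match to each motif, for members, other antisense lncRNAs, lncRNAs with no opposite-strand gene and protein-coding genes. Members stand highest for each heat shock element (either form, 45.0%) but not for the cyclic-AMP response core (5.43%).

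Levels were low before heat and rose through 25 min. The median over members of the mean level was 1.89 CPM at 0 min, 6.91 CPM at 5 min and 16.1 CPM at 25 min in RNA1. By the rule, every member was higher at 25 min, and the ratio of the means ran from 3.20 to 117 with a median of 7.67. All 131 had 25 min libraries above their 0 min libraries with no overlap, which the rule made likely. The rule admitted 11.5% of the antisense lncRNAs considered, 5.38% of lncRNAs with no opposite-strand gene, 4.66% of protein-coding genes and 5.65% of all genes. Its mirror image, with the times exchanged, admitted 13 antisense lncRNAs. At the threshold, SPNCRNA.67 (5.76 to 18.8 CPM) and SPNCRNA.683 (7.10 to 22.9 CPM) lay just inside, and SPNCRNA.987 (0.742 to 3.69 CPM) and SPNCRNA.1621 (2.48 to 8.80 CPM) just outside.

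Most of the rise came after 5 min. The median member had made 26.9% of its 25 min rise by 5 min in RNA1, and 104 members had made under 50% of it. A group of 15 had made under 10%, while 11 were as high or higher at 5 than at 25 min. These shares rest on the 25 and 0 min means that chose the members, so they are description only. At 5 min 97 members already stood at least 2 times above their 0 min mean in RNA1, and 68 at least 3 times. The rise by 5 min was smaller in RNA2, where the median of the members' means went from 2.29 to 3.63 CPM. In RNA1 that median went from 1.89 to 6.91 CPM. The series also differed before heat, and the tests below use RNA2 at 0 min as the wild-type baseline. The members together had 603 ± 99.6 CPM at 0 min in RNA2 and 475 ± 44.3 CPM in RNA1 (SD, n = 3 each). Of the sense genes, ssa1 had a mean of 180 CPM in RNA2 against 38.9 CPM in RNA1. For ddr48 these were 5.62 and 4.51 CPM, and guf1 was lower in RNA2, at 17.8 against 34.4 CPM. The cause was not tested. The members with the highest 25 min level show both courses. SPNCRNA.728, on chromosome I at 1235569 to 1238775 and covering the uncharacterised gene SPAC10F6.15, had 20.4, 21.9 and 17.9 CPM at 0 min, 49.2, 53.9 and 57.4 CPM at 5 min and 154, 188 and 174 CPM at 25 min. Its 3 times did not overlap, and its level was highest among the members at 25 min. SPNCRNA.1276 is antisense inside brl1, which encodes a ubiquitin ligase for histone H2B, at III:2239857-2242131. It had 10.9, 12.8 and 18.8 CPM at 0 min, 15.3, 12.8 and 17.3 CPM at 5 min and 89.9, 93.9 and 106 CPM at 25 min. The 0 and 5 min libraries overlapped, and all 3 libraries at 25 min stood far above both. SPNCRNA.980, opposite the 3′ end of ayr1 (an acyldihydroxyacetone phosphate reductase gene), followed the same course, with means of 13.9 ± 3.05, 13.6 ± 2.75 and 79.1 ± 14.6 CPM at 0, 5 and 25 min (SD, n = 3).

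The early course was that of SPNCRNA.904, which covers the gene of the meiotic recombinase Dmc1 at I:3382189-3383857. It had 30.1, 30.6 and 27.3 CPM at 0 min, 114, 134 and 122 CPM at 5 min and 107, 116 and 100 CPM at 25 min. The 5 and 25 min libraries overlapped, and no time between them was sampled in RNA1. SPNCRNA.1037 peaked early, with a mean of 1.10 ± 0.172 CPM at 0 min, 11.1 ± 2.57 CPM at 5 min and 6.35 ± 0.823 CPM at 25 min. The others as high at 5 min as at 25 min were SPNCRNA.1358, SPNCRNA.1389, SPNCRNA.926, SPNCRNA.1165, SPNCRNA.911, SPNCRNA.1607, SPNCRNA.824 and the mutually antisense pair SPNCRNA.1259 and SPNCRNA.1260. These names were chosen by the time course after it was seen.

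**Figure D2:**
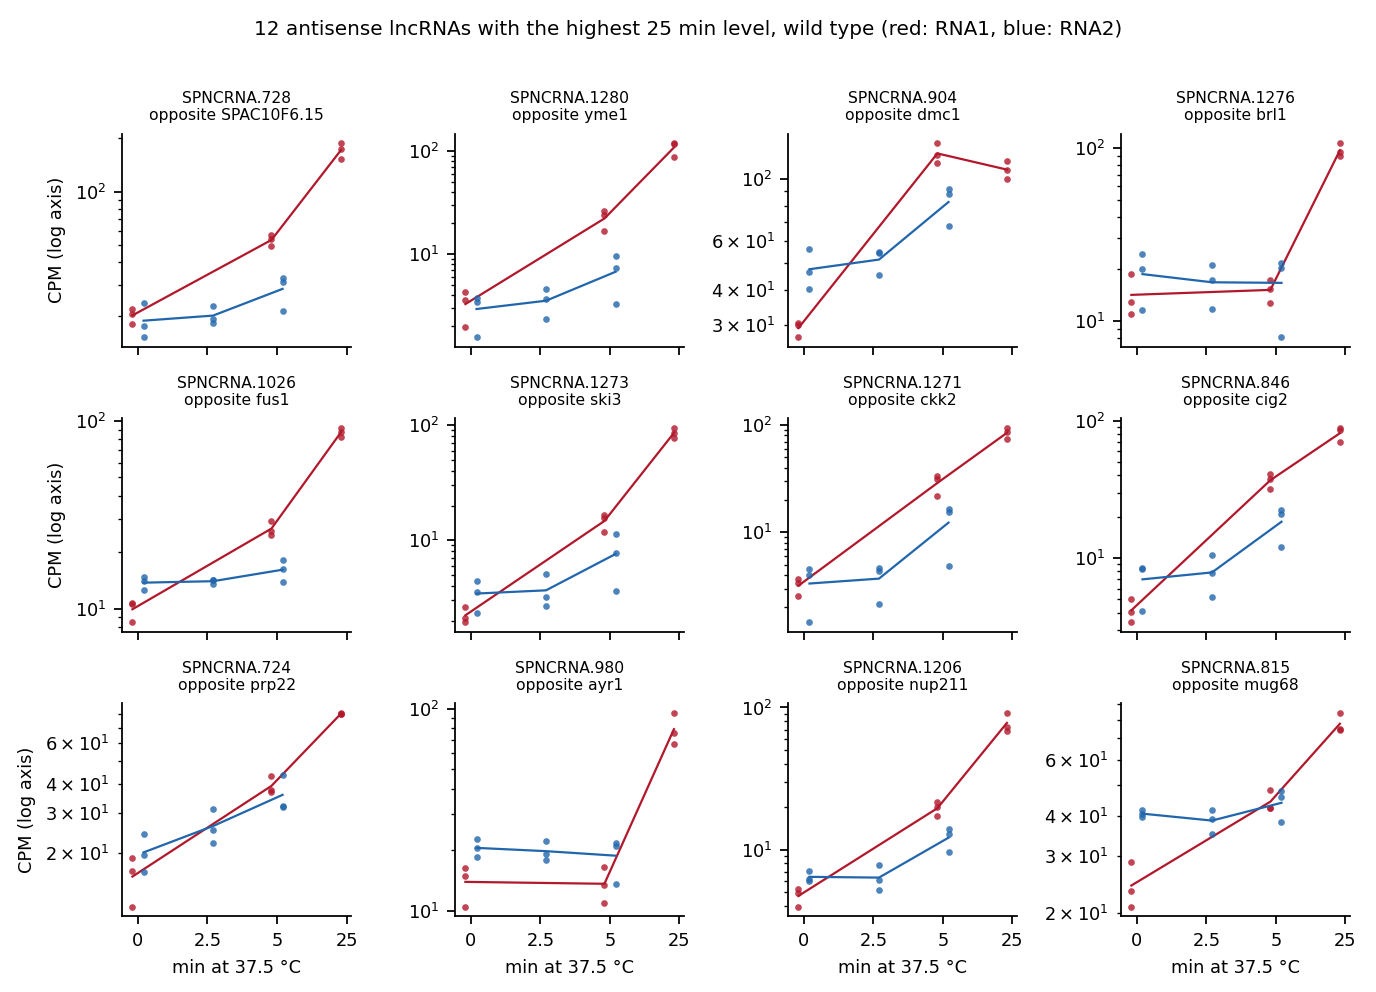
CPM on a log axis against min at 37.5 °C for the 12 members with the highest 25 min mean, with points for single libraries and lines through the means (red, RNA1; blue, RNA2); the time axis is not to scale. SPNCRNA.904 stands at similar levels at 5 and 25 min in RNA1, whereas SPNCRNA.1276 and SPNCRNA.980 change little by 5 min.

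The largest ratio was that of SPNCRNA.1475, which starts inside tra1 (a subunit of the SAGA coactivator) and runs out past its 5′ end at II:1904423-1905778. It had 0.264, 0.0903 and 0.345 CPM at 0 min, 8.42, 9.84 and 8.52 CPM at 5 min and 24.1, 32.0 and 25.9 CPM at 25 min. From near absence it rose in every library at both times, by a factor of 117 in the means. SPNCRNA.1273, antisense to the 5′ part of ski3 (a subunit of the cytoplasmic Ski complex, which feeds RNA to the exosome), had a mean of 2.23 ± 0.346 CPM at 0 min, 14.7 ± 2.65 CPM at 5 min and 85.4 ± 8.56 CPM at 25 min. SPNCRNA.1280, antisense to the 5′ part of yme1 (a mitochondrial inner membrane protease), went from 3.27 ± 1.18 to 22.2 ± 4.83 and 108 ± 17.6 CPM. The remaining members of the highest 12 lie opposite fus1 (a formin for cell fusion in mating), ckk2, the cyclin gene cig2, the splicing helicase gene prp22, the nucleoporin gene nup211 and mug68.

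The early change was tested in libraries that the rule did not use. At 5 min in wild type RNA2, 65 of 131 members rose and none fell (edgeR's quasi-likelihood test, Benjamini-Hochberg adjusted over all 6172 genes tested). Among all genes 14.1% were called higher and 13% lower. At an unadjusted p under 0.05, 77 were higher and 1 lower (all genes, 18.3% and 17.3%), and DESeq2 called 64 higher and 0 lower. The median member change was 0.84 on the log2 scale, against 0.00041 over all genes. Of the 795 other antisense lncRNAs tested, 42 rose and 83 fell. All 3 libraries at 5 min lay above all 3 at 0 min for 51 members and below for 4, against 10.1% and 25.1% of all genes tested. Without the third 5 min library the count was 71, and without the first it was 50. At 2.5 min only SPNCRNA.1037 was called (1 higher and 0 lower, against 1.13% and 0.599% of all genes), and DESeq2 called 2. With the replicate number as a block 4 were called. At an unadjusted p under 0.05, 10 members were higher and 3 lower at 2.5 min, against 5.4% and 4.57% of all genes.

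SPNCRNA.1037, whose window holds a 3-unit element, was called higher in all of the early comparisons. In RNA2 it had 2.16, 2.98 and 1.86 CPM at 0 min, 4.82, 3.45 and 6.78 CPM at 2.5 min and 12.7, 13.5 and 21.0 CPM at 5 min. The times did not overlap. Its log2 change was 2.88 ± 0.26 (SE) at 5 min (edgeR adjusted p = 2.0e-10) and 1.14 ± 0.29 at 2.5 min (adjusted p = 0.033). The 2.5 min call was lost when any library but the second at 2.5 min was left out, with changes of 0.87 to 1.31. SPNCRNA.1523, whose window also holds a 3-unit element and which lies opposite the 5′ part of the Golgi protein gene grp2, had 5.29, 3.10 and 2.74 CPM at 0 min and 18.1, 11.7 and 12.9 CPM at 5 min. All 5 min libraries were higher, and its change was 2.06 ± 0.25 (edgeR adjusted p = 8.8e-08). SPNCRNA.616 is antisense inside the galactosyltransferase gene otg1 and also carries such an element. It had 1.95, 2.07 and 1.47 CPM at 0 min and 2.98, 2.21 and 1.71 CPM at 5 min, with overlap and no call. Thus windows with the longest element included both called and uncalled members at 5 min.

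The share of members called early was also counted with and without an element. In wild type RNA2 at 5 min 26 of 58 members with either element (44.8%) and 37 of 71 without (52.1%) were called higher, with median log2 changes of 0.84 and 0.83. The shares higher were 46.6% with and 38.0% without an element in atf1Δ, 50% and 40.9% in pcr1Δ, and 43.1% and 43.7% in clr4Δ. The median log2 changes with and without an element were 0.72 and 0.48 in atf1Δ, 0.87 and 0.50 in pcr1Δ, and 0.72 and 0.59 in clr4Δ. Among other antisense lncRNAs tested in RNA2 the shares called higher were 8.61% with and 4.42% without an element. The median ratio of 25 to 0 min in RNA1, which the rule used, was 9.05 with an element and 6.26 without. These shares were not tested against each other.

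Early rises were also seen in the deletion strains. At 5 min 55 members rose and 3 fell in libraries labelled atf1Δ (all genes, 12.6% higher and 17.3% lower), 60 rose and 4 fell in pcr1Δ (12.5% and 14.9%) and 57 rose and 2 fell in clr4Δ (16.2% and 14.0%). Without the second clr4Δ library at 5 min, 45 rose and 1 fell. The median log2 changes were 0.55, 0.68 and 0.62, against -0.0077, -0.0035 and 0.022 over all genes. A total of 37 members were called higher at 5 min in all 4 strains and 85 in at least 1, against 6.59% and 23.2% of all genes. In clr4Δ at 2.5 min 3 rose and 0 fell (all genes, 0.907% higher and 0.664% lower), namely SPNCRNA.1037, SPNCRNA.1260 and SPNCRNA.1165. At an unadjusted p under 0.05, 16 were higher and 2 lower there (all genes, 6.22% and 5.52%), leaving out any library but the third at 2.5 min gave 1 call, and the replicate block gave 9.

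**Figure D3:**
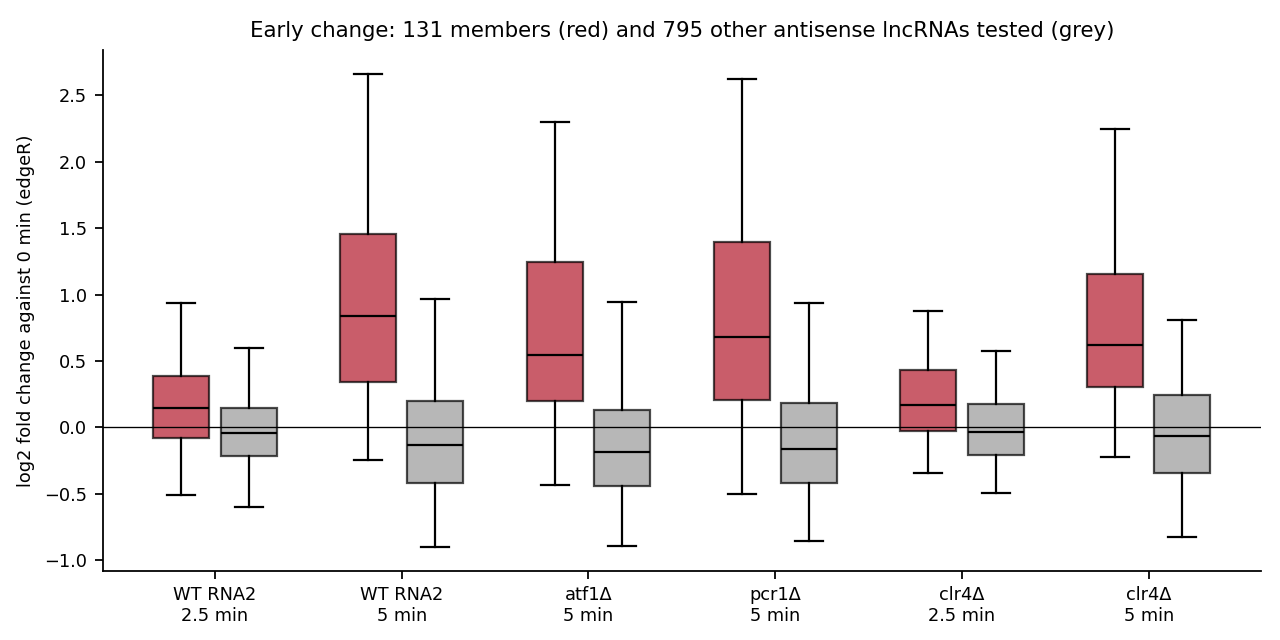
Log2 fold change against 0 min (edgeR) for the 131 members (red) and the 795 other antisense lncRNAs tested (grey) in each early comparison; the box spans the quartiles, the line is the median and the whiskers reach the percentiles 5 and 95. Member medians lie between 0.55 and 0.84 at 5 min, and those of the other antisense lncRNAs lie below 0.

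Some members rose in each strain. SPNCRNA.1037 reached 30.0, 23.9 and 28.8 CPM at 5 min in atf1Δ from 2.48, 2.77 and 3.04 CPM, a change of 3.48 ± 0.24 (edgeR adjusted p = 9.7e-13). In pcr1Δ its change was 3.74 ± 0.25 and in clr4Δ 2.44 ± 0.24. Every 5 min library in these strains was above every 0 min library. SPNCRNA.1475 went from 0.165, 0.171 and 0.159 to 3.06, 3.801 and 4.29 CPM in pcr1Δ, and its change was 4.50 ± 0.45 (adjusted p = 2.2e-09 in edgeR). SPNCRNA.926, which covers mug182, rose in all 4 strains, by 1.93 ± 0.23 in wild type RNA2 and 1.77 ± 0.20 in atf1Δ.

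A few members fell at 5 min in the deletion strains while higher at 25 min in wild type RNA1. SPNCRNA.683, opposite the 3′ part of SPAC4G8.09, had 11.5, 8.30 and 10.4 CPM at 0 min and 3.13, 4.72 and 4.56 CPM at 5 min in atf1Δ. The times did not overlap, and the change was -1.09 ± 0.23 (edgeR adjusted p = 0.00043). It fell by 1.09 in pcr1Δ and by 0.87 in clr4Δ on the log2 scale, and in wild type RNA2 it changed by -0.33 ± 0.23, which was not called. The clr4Δ call was lost without the second 0 min library (-0.62). SPNCRNA.1565 fell by 0.54 in atf1Δ and by 0.56 in pcr1Δ, and its 0 min level was above wild type RNA2 by 1.54 and 1.49 log2 units in these strains (edgeR adjusted p = 6.1e-09 and 1.4e-08). Its mean was 14.8 ± 0.391 CPM at 0 min and 8.997 ± 0.485 CPM at 5 min in atf1Δ (SD, n = 3), against 5.19 ± 0.853 and 5.85 ± 1.41 CPM in wild type.

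Whether the 5 min response itself differed from wild type was tested as an interaction against RNA2. Strain and series are confounded here, so a difference between strains and one between series RNA2 and RNA3 cannot be told apart. With edgeR 2 members responded less in atf1Δ and 0 more (all genes, 1.99% less and 0.081% more), 2 less in pcr1Δ and 0 more (1.9% and 0.146%), and 0 in clr4Δ (0.0162% in either direction). At an unadjusted p under 0.05, 4 members responded more and 21 less in atf1Δ (all genes, 1.62% and 6.9%), 5 more and 19 less in pcr1Δ (1.52% and 5.49%), and 1 more and 6 less in clr4Δ (1.46% and 1.22%). DESeq2 called 0 in clr4Δ. When a library was left out the atf1Δ count ran from 1 to 6 and the pcr1Δ count from 1 to 5, both highest without the third RNA2 library at 5 min. With a block for the replicate number, set within each series and strain, these counts were 16 and 11. Same-numbered 0 and 5 min libraries deviated together in wild type RNA2 (r from 0.239 to 0.483) and pcr1Δ (0.101 to 0.272). In atf1Δ r was 0.464, -0.075 and 0.011.

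SPNCRNA.1071 lies opposite the 5′ part of ski7, which links the Ski complex to the exosome. In wild type RNA2 it had 0.540, 0.689 and 0.978 CPM at 0 min and 2.18, 3.48 and 2.05 CPM at 5 min. In atf1Δ it had 9.63, 8.05 and 7.82 CPM at 0 min and 8.96, 4.89 and 7.01 CPM at 5 min. In pcr1Δ it had 7.10, 6.68 and 7.97 CPM and then 6.21, 6.46 and 8.02 CPM. It was thus already high without heat in both deletion strains, where the times overlapped, and rose only in wild type and clr4Δ among the strains tested (clr4Δ 1.16 ± 0.31, edgeR adjusted p = 0.0038). The response was lower by -2.00 ± 0.42 in atf1Δ (edgeR adjusted p = 0.0028) and by -1.85 ± 0.42 in pcr1Δ (adjusted p = 0.0079, lost without the second 5 min RNA2 library at -1.61).

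SPNCRNA.811 lies opposite the 5′ part of ssa1, which encodes a heat shock protein of the Hsp70 family, at I:2297820-2298939. It had 0.324, 0 and 0.0978 CPM at 0 min and 2.29, 3.27 and 1.94 CPM at 5 min in wild type RNA2. In atf1Δ it had 4.27, 4.95 and 4.05 CPM at 0 min and 9.38, 12.2 and 13.2 CPM at 5 min. Levels rose in both strains, from a far higher start in atf1Δ, and the wild-type start rests on a few reads. The response differed by -2.56 ± 0.68 (edgeR adjusted p = 0.032), a call that was lost in 7 of the 12 fits that each left out 1 library. SPNCRNA.815, opposite the 3′ part of mug68, had 39.5, 33.1 and 37.7 CPM at 0 min and 24.7, 25.1 and 24.9 CPM at 5 min in pcr1Δ, with all 5 min libraries lower. In wild type RNA2 its means were 40.8 ± 0.989 and 44.1 ± 5.10 CPM, and the response differed by -0.68 ± 0.16 (edgeR adjusted p = 0.012, lost without the first 5 min RNA2 library at -0.60).

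Several members showed a lower rise without passing that test. SPNCRNA.1165 had 0.324, 1.38 and 0.782 CPM at 0 min and 11.5, 8.64 and 4.79 CPM at 5 min in wild type RNA2. In atf1Δ it had 0.199, 0.335 and 0.368 CPM and then 0.521, 0.445 and 0.0877 CPM, with overlap. The response differed by -3.10 ± 0.93 (edgeR adjusted p = 0.080). For SPNCRNA.904 the 5 min means were 82.6 ± 13.1 CPM in wild type RNA2, 44.2 ± 1.39 CPM in atf1Δ and 44.9 ± 1.65 CPM in pcr1Δ, from 47.6 ± 7.86, 43.4 ± 1.02 and 41.2 ± 2.64 CPM at 0 min. Its responses differed from wild type by -0.71 ± 0.22 and -0.68 ± 0.22 (edgeR adjusted p = 0.10 and 0.15).

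Levels before heat differed more widely. At 0 min 59 members were higher and 6 lower in atf1Δ than in wild type RNA2 (all genes, 20.8% higher and 21.5% lower), and 31 higher and 10 lower in pcr1Δ (17.5% and 19.4%). In clr4Δ 16 were higher and 0 lower (2.67% and 1.05%), with 50 higher and 3 lower at an unadjusted p under 0.05 (all genes, 9.75% and 8.85%). Of the 795 other antisense lncRNAs, 166 were higher and 114 lower in atf1Δ, 148 and 118 in pcr1Δ, and 29 and 4 in clr4Δ. SPNCRNA.1280 was among the lower ones, with 0.397, 0.587 and 0.828 CPM in atf1Δ against 3.78, 3.44 and 1.56 CPM in wild type RNA2, a difference of -2.19 ± 0.52 (edgeR adjusted p = 0.00096). The strains did not overlap. At the other end, SPNCRNA.811 was higher than wild type by 4.87 ± 0.51 in atf1Δ (edgeR adjusted p = 3.0e-09) and by 3.50 ± 0.59 in pcr1Δ, and SPNCRNA.1071 by 3.51 ± 0.31 and 3.31 ± 0.31. Both were low in every wild-type library at 0 min. SPNCRNA.1026, antisense inside fus1, was instead lower, by -0.58 in atf1Δ and -1.005 in pcr1Δ. Leaving out 1 library gave 8 to 13 calls for clr4Δ, the fewest without the second RNA2 library, and series and strain cannot be told apart in these levels.

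**Figure D4:**
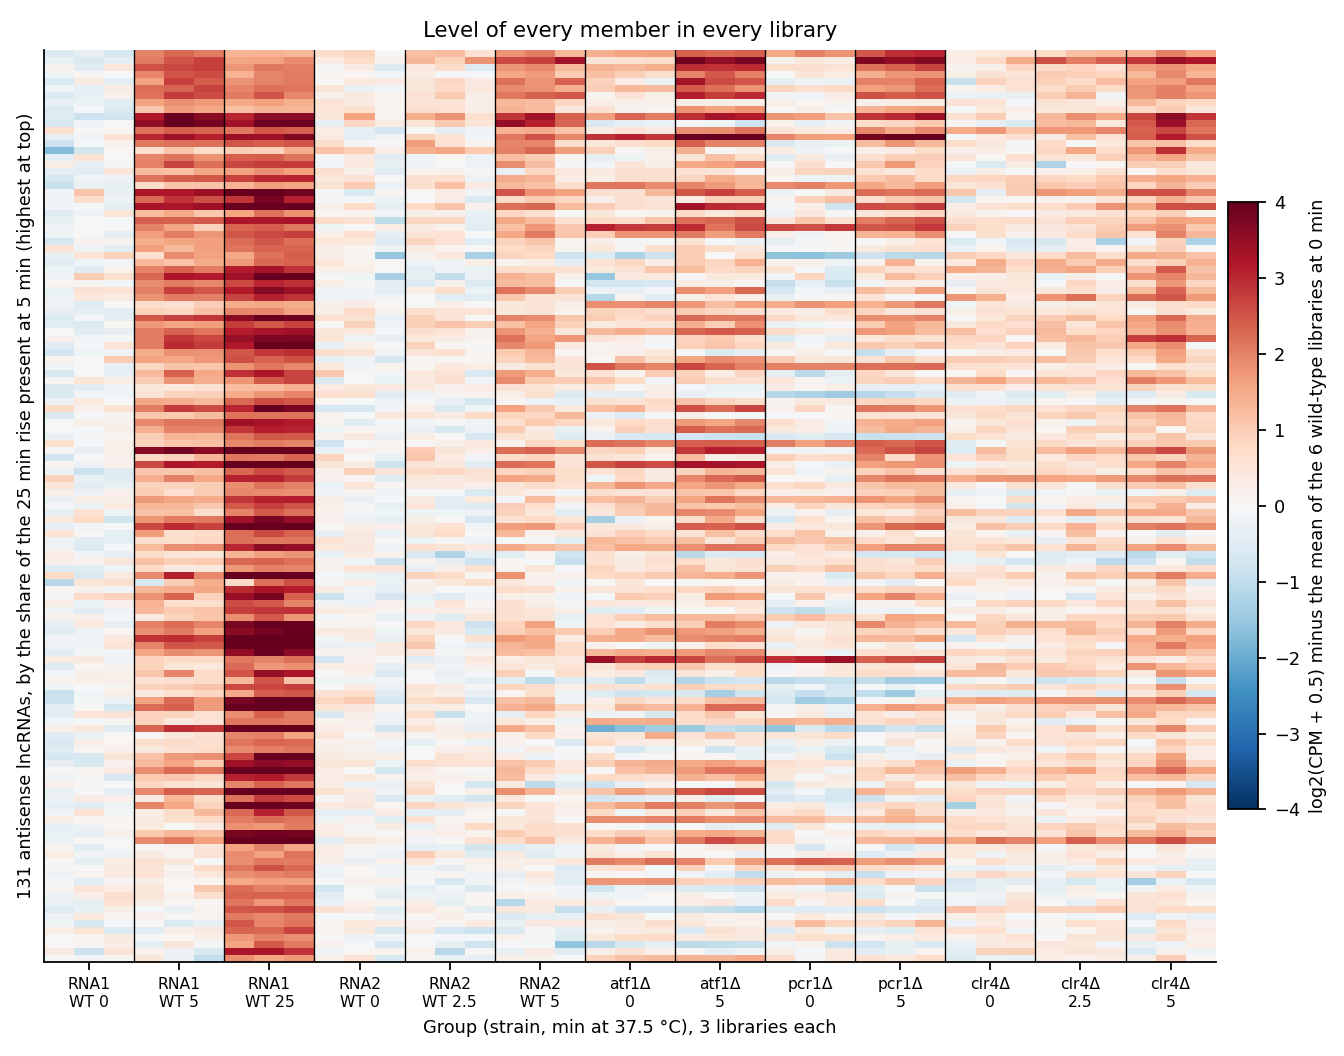
Every member (rows) in each of the 39 libraries (columns, grouped by series, strain and min at 37.5 °C), as log2(CPM + 0.5) minus the mean of the 6 wild-type libraries at 0 min; rows are ordered by the share of the 25 min rise present at 5 min. The 25 min block is red throughout by the rule, and the third 5 min library of wild type RNA2 is paler than the others. At 0 min 59 members were called higher and 6 lower in atf1Δ than in wild type RNA2. In pcr1Δ 31 were called higher and 10 lower.

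The genes opposite the members were mostly protein-coding. Each member was paired with a single sense gene, the opposite-strand gene of largest overlap, with genes that are not SPNCRNA taken first. That gave 130 distinct sense genes, 119 of them not SPNCRNA. There were 38 members with 2 or more opposite-strand genes, and only the chosen gene is described. Of the members, 49 (37.4%) lay wholly inside the sense gene, 45 (34.4%) began inside it and ran out past its 5′ end, 25 (19.1%) overlapped its 3′ end and 12 (9.2%) covered it. Among other antisense lncRNAs these shares were 26.1%, 38.3%, 22.2% and 13.5%. Median length was 1310 bases for members and 1182 bases for the others.

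Sense genes changed in both directions. At 25 min in RNA1, 59 of the 126 tested rose and 39 fell (edgeR), against 33.9% and 33.5% of all genes, with a median log2 change of 0.24 against 0.020. At 5 min in RNA2, 26 of 128 rose (20.31%) and 20 fell (15.62%), against 14.14% and 13.04% of all genes. With library totals in place of normalization factors the counts of sense genes became 20 and 23. Sorted by position, 28 members that run out past the 5′ end had a sense gene that rose and 10 one that fell. For members inside the gene the numbers were 21 and 16, for those over the 3′ end 9 and 9, and for those covering the gene 2 and 4. Over 120 pairs tested at 25 min the log2 changes of antisense and sense had a Pearson's r of -0.029 and a Spearman's rho of 0.025. These pairs come from the same libraries and were chosen for the antisense change. At 5 min in RNA2, which the rule did not use, 120 pairs gave an r of 0.18 and a rho of 0.064.

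**Figure D5:**
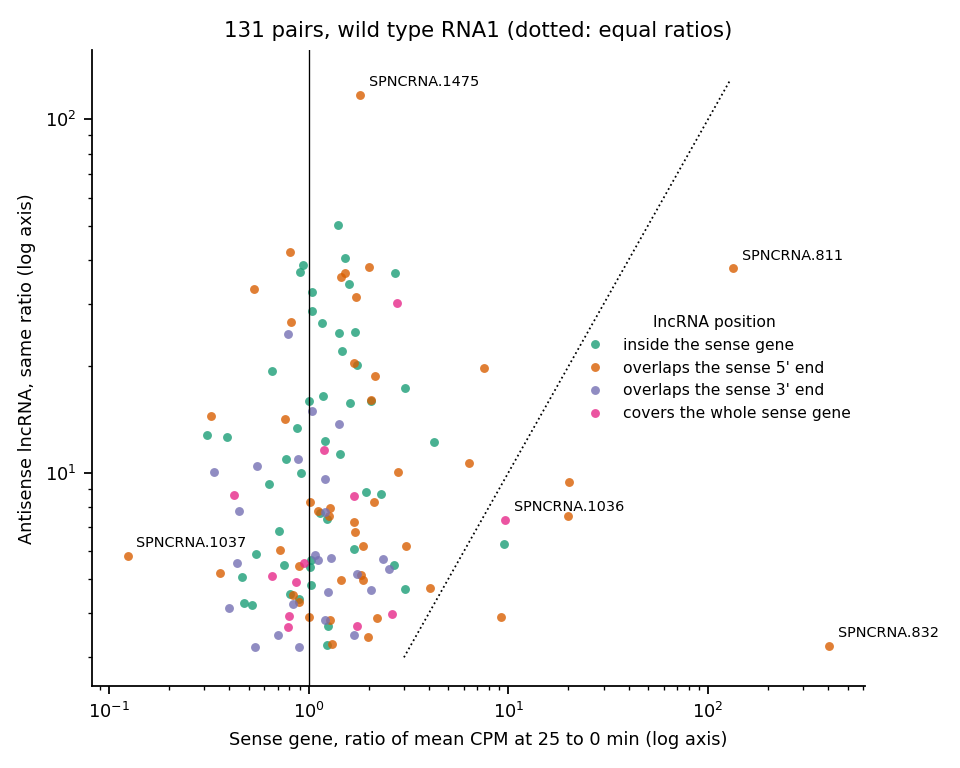
Ratio of the mean CPM at 25 to that at 0 min in wild type RNA1 for each of the 131 pairs, sense gene on the horizontal and antisense lncRNA on the vertical log axis, coloured by position; the dotted line marks equal ratios. Antisense ratios are all at least 3.20 by the rule, sense ratios fall on both sides of 1, and 7 pairs lie on or below the dotted line.

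Antisense RNA made up a larger part of most pairs after heat. Per kilobase of transcript, the antisense level was above the sense level in 9 pairs at 0 min and 33 pairs at 25 min. The antisense share of the pair's summed CPM per kilobase had a median of 4.08% at 0 min and 25.98% at 25 min. The rule fixes the direction of this shift for most pairs.

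In 7 pairs the sense mean rose by at least as large a factor as the antisense mean. Among them is SPNCRNA.1259, whose sense gene SPNCRNA.1260 is itself a member, so that its rise was required by the rule. The clearest of the others were known heat-induced genes. The sense gene ssa1 had 27.7, 55.5 and 33.5 CPM at 0 min and 4578, 6227 and 4738 CPM at 25 min, a log2 change of 7.003 ± 0.31 (edgeR adjusted p = 2.6e-19). Its antisense SPNCRNA.811 went from a mean of 0.183 to 6.94 CPM in the same libraries. The stress gene ddr48 went from 4.51 ± 0.627 to 1828 ± 576 CPM (8.62 ± 0.47), while its antisense SPNCRNA.832 had 6.87, 7.22 and 7.25 CPM and then 16.2, 38.4 and 14.4 CPM. The second 25 min library was high for both strands of that locus, and without it SPNCRNA.832 would not meet the rule. The neutral trehalase gene ntp1 rose by 4.28 ± 0.16 and wis2, a cyclophilin gene, by 3.21 ± 0.12. The other large rises were those of SPBC1685.12c (3.20 ± 0.27) and SPBC36.02c (3.16 ± 0.22). In 4 pairs the antisense mean at 25 min was under 1% of the sense mean, the lowest being SPNCRNA.811 at 0.134% of ssa1. The part that reads counted on the wrong strand play in such low ratios was not tested.

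Among sense genes that fell, the largest change was that of guf1. The sense gene guf1, for a mitochondrial translation factor, had 31.5, 32.4 and 39.5 CPM at 0 min, 13.8, 16.2 and 15.5 CPM at 5 min and 4.69, 3.30 and 4.79 CPM at 25 min. The 3 times did not overlap, and its change at 25 min was -3.05 ± 0.14 (edgeR adjusted p = 1.2e-18). In RNA2 at 5 min, where its antisense SPNCRNA.1037 had risen, guf1 changed by 0.02 ± 0.13. The U3 processome gene utp4 fell by 1.74, the exosome helicase gene mtr4 by 1.62, the helicase gene hca4 by 1.52 and the ribosome assembly GTPase gene nog2 by 1.40, and grp2 fell by 1.66. Their antisense partners were SPNCRNA.1632, SPNCRNA.735, SPNCRNA.1005, SPNCRNA.847 and SPNCRNA.1523. The sense gene yme1 fell by 0.95 (SE 0.08) under SPNCRNA.1280, while ski3 rose by 0.95 ± 0.09 under SPNCRNA.1273 and tra1 by 0.81 ± 0.15 under SPNCRNA.1475.

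Genes that start close by on the other side were more often raised than lowered. A divergent gene, whose start lies within 500 bases on the opposite strand upstream, was present for 34 members (26%) and for 317 other antisense lncRNAs (31.4%). At 25 min in RNA1 these divergent genes rose beside 21 members, fell beside 4 and were not called beside 9 (all genes, 33.9% higher and 33.5% lower). Beside the other antisense lncRNAs 92 rose, 100 fell and 101 were not called. These calls come from the same libraries that chose the members. The largest rises were those of tps1 (trehalose synthesis) 61 bases from SPNCRNA.911 with a log2 change of 3.72, wis2 93 bases from SPNCRNA.1037 with 3.21 and sti1 (an Hsp90 cochaperone) 39 bases from SPNCRNA.1182 with 3.03. The 3-unit element shown for SPNCRNA.1037 therefore lies close to the start of wis2. Distances rest on annotated starts, and these examples were chosen by their change after it was seen.

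Among 70 genes that control lncRNAs, 14 rose and 36 fell at 25 min in RNA1 (all genes, 33.9% and 33.5%). Of 23 genes for the nuclear exosome and its cofactors, which degrade antisense RNA in the nucleus, 2 rose and 19 fell, with a median log2 change of -0.64. The helicase gene mtr4 went from a mean of 369 to 124 CPM, and the exosome-targeting factor mmi1 fell by 0.81 (SE 0.07) and rmn1 by 0.79 (SE 0.07). Of 8 RNA interference genes 6 rose and 0 fell, among them rdp1 (RNA-dependent RNA polymerase) by 0.68 ± 0.08 and ago1 (Argonaute) by 0.45 ± 0.07. Of 8 cytoplasmic decay genes 2 rose and 4 fell, with ski3 higher by 0.95 and the nonsense-mediated decay helicase gene upf1 lower by -0.92 ± 0.08. Of 21 genes for chromatin over transcribed regions 3 rose, cph1 among them (0.73 ± 0.08), and 8 fell, and of 10 for termination and 3′ end processing 1 rose and 5 fell. The genes mtr4, ski3 and cph1 are themselves opposite members. The part of these changes in the members' rise was not tested.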

How the data were processed

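Total RNA was extracted with hot phenol and the KAPA mRNA HyperPrep kit turned it into sequencing libraries, per the labels' protocols. The deposited counts are whole reads per gene, 1 table for each of 39 libraries, with the 4 summary lines of a STAR table left out. STAR (version not stated), Trimmomatic 0.33, bedtools 2.17.0 and build ASM294v2 are in the submitters' processing notes. The annotation and the strand column counted are not given in the sources used here. A further deposited table, for 18 libraries, gives gene positions and a signal per gene that is about 50 times the count, not scaled by the authors to library size; positions, strands and sense genes came from it. Among lncRNAs wholly inside a sense gene its median signal per count was 49.65, against 49.73 for lncRNAs with no gene opposite. The 222 other samples of the series were not analysed here.

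Members and gene lists were chosen with earlier results of these data known. Genes were kept with a minimum count of 10 in enough libraries and 15 in total, which left 6172 of 7015 genes, all 131 members among them, or 128 without the RNA1 libraries. Tests used edgeR 4.0.16 (R 4.3.3) with TMM normalization, 1 coefficient for each of the 13 groups over all 39 libraries, the quasi-likelihood test and Benjamini-Hochberg adjustment at 0.05 over all genes. "Rose" and "fell" mean a call by that rule. CPM used the library total without TMM. The script was tested on simulated data. DESeq2 1.42.0 and limma 3.58.1 served as alternatives, beside other scalings, no filter, fewer groups, left-out libraries and a replicate block.

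Named members were the 12 with the highest 25 min mean, up to 5 called members with the smallest p in each direction of each tested comparison, and the 2 nearest on each side of the threshold. Named sense genes were theirs plus the 6 with the largest called rise and the 6 with the largest called fall. Named control genes were the 4 with the smallest p in each direction. Same-numbered libraries deviated together in every pair within wild type RNA1 (r from 0.247 to 0.482), wild type RNA2 (0.174 to 0.554), pcr1Δ (0.101 to 0.272) and clr4Δ, but not in atf1Δ (0.464, -0.075 and 0.011).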

Additional observations from a re-analysis of the deposited data

Results flagged for a closer look

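A test of the difference between strains set apart 4 responses at 5 min, each lower than that of wild type RNA2. In atf1Δ they were those of SPNCRNA.811, by -2.56 on the log2 scale, and SPNCRNA.1071, by -2.00. In pcr1Δ they were those of SPNCRNA.1071, by -1.85, and SPNCRNA.815, by -0.68. For SPNCRNA.811 and SPNCRNA.1071 the 0 min level was higher in these strains than in wild type, whereas SPNCRNA.815 started at 36.8 ± 3.29 CPM in pcr1Δ and 40.8 ± 0.989 CPM in wild type (SD, n = 3). Strain and series cannot be told apart.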

How the results depend on the processing

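The counts of members called at 5 min moved with the alternatives. They ran from 45 to 74 in wild type RNA2, from 54 to 69 in atf1Δ, from 53 to 77 in pcr1Δ and from 46 to 74 in clr4Δ, against 65, 58, 64 and 59 as reported. No single value changed sign with its call, but sense genes at 5 min in RNA2 went from 26 higher and 20 lower to 20 and 23 with library totals. At 2.5 min in RNA2 the count of 1 became 2 with DESeq2, 0 with RNA2 and RNA3 only, 0 with the compared groups only, 0 with library totals and 4 with the replicate block, and ran from 0 to 2 without 1 library. At 2.5 min in clr4Δ the count of 3 became 1 with the compared groups only, 1 with the signal table and 9 with the block, and ran from 1 to 3. Different responses in atf1Δ (2) became 4 with DESeq2 and 16 with the block, and ran from 1 to 6. Those in pcr1Δ (2) became 11 with the block and ran from 1 to 5. Different 0 min levels in clr4Δ (16) became 9 with the compared groups only, 10 with the signal table and 36 with the block, and ran from 8 to 13. The block took replicate numbers within each series and strain and did not pair strains with each other. The cause was not tested. Same-numbered libraries of atf1Δ or pcr1Δ and wild type mostly did not deviate together (r from -0.172 to 0.143 and from -0.127 to 0.118), whereas those of clr4Δ and wild type had r from 0.034 to 0.143 at 0 min and from 0.238 to 0.3 at 5 min. Of the single-gene values under alternatives, 177 lost their call and 2362 kept call and direction. Library totals moved the median log2 change of all genes by -0.18 in atf1Δ and by -0.11 in both RNA2 and pcr1Δ at 5 min. Another reading of the rule gave 152 members, TMM-scaled CPM gave 123, and leaving out a library gave 124 to 138. Low counts limit the folds of members near 0 CPM before heat.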
